A study of Mus musculus with 4 samples.

Results

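The array design used on these mouse brains held 4450 probes that were named by a genomic position instead of a transcript accession, out of 56605 probes in all. They were chosen by that name alone, a chromosome with a start, an end and a strand letter (F or R) in the mouse build mm9. No measured value entered the choice. The 4450 probes covered 3230 distinct intervals, which merged into 2150 loci where intervals overlapped. The intervals had a median length of 7204 bp, with a range from 62 to 538251 bp, and 2262 of them carried 1 probe while 968 carried more, up to 8. The probes lay on 20 chromosomes, with 95 to 343 probes on each and 0 on the Y chromosome. The letter F was carried by 2227 probes and the letter R by 2222, and 1 probe carried none.

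Whole brains were taken from wild-type mice and from Nav1.8CreROSA26DTA mice, here called DTA mice, after an injection of PBS or of lipopolysaccharide (LPS, from the outer membrane of Gram-negative bacteria). The LPS dose was 20 mg/kg, intraperitoneal, and brains were taken at 12 hours. The 4 groups were wild-type with PBS, DTA with PBS, wild-type with LPS and DTA with LPS, and each was measured on 1 single-colour array. Values for 4 arrays are given in that order throughout. In DTA mice, Cre recombinase is driven by the promoter of Nav1.8 (Scn10a), a sodium channel used mainly by peripheral sensory neurons, and Cre then switches on diphtheria toxin A from the ROSA26 locus, which kills those cells. Nav1.8 neurons have their cell bodies in peripheral ganglia, outside the tissue measured. Whether wild-type mice were littermates or carried either allele alone, whether an array held 1 mouse or a pool, and their age and sex, are not given in the sources used here.

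Intergenic noncoding RNAs are transcripts without a long open reading frame that lie between protein-coding genes. Many were first mapped as stretches of chromatin carrying the histone marks of an active promoter followed by those of an elongating polymerase, so they were known as intervals of the genome before their exact exons were known. Expression arrays could therefore probe such an interval on either strand before its transcript was known. In brain, some of these RNAs are abundant and nuclear, such as Malat1, Neat1 and Meg3, while most are expressed weakly and in few cell types. LPS acts through Toll-like receptor 4 and induces NF-kB and interferon target genes, and noncoding transcripts near such genes can be induced with them. The positions were not set against mm9 gene models here, so whether a probe lies in an exon, an intron or between genes was not analysed, and what F and R stand for in the design is not known from the sources.

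Of 59305 non-control spots per array, 66.5% to 69.5% were well above background, 81 to 96 were outliers and 0 were saturated. The array's 75th percentile of processed signal was 605, 508, 626 and 720, and levels are given as log2 of the processed signal over that value. The 4 defining markers of neurons, astrocytes, oligodendrocytes, microglia and endothelium were each well above background on all 4 arrays, and 4 of 4 LPS response genes (Lcn2, Cxcl10, Irf7 and Gbp2) rose with LPS, with a median of 6.08 on the log2 scale. The microglia list fell with LPS in 3 of 4 genes, with a median of -0.78. Blood cell markers differed between arrays. The neutrophil list rose with LPS in 4 of 4 genes, and its median for DTA minus wild-type was 3.64 with PBS and 0.33 with LPS. The 3 red cell genes that were tested had a median of 3.01 for DTA minus wild-type with PBS and 0.66 with LPS. In whole tissue, a change in the number of cells and a change in RNA per cell cannot be told apart. With 1 array per group, p-values measure the agreement of both genotypes' responses, not the spread between animals.

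Fewer position probes than other probes were detected, and those detected gave lower signals. Probes also bind with different strength, so signals are set against each other here as brightness on the array, not as levels of RNA. Of the 4450 position probes, 2175 (48.9%) were well above background on all 4 arrays and 1638 (36.8%) on none, while of the 52155 other probes 62.8% were detected on all 4 arrays and 28.0% on none. Over the probes detected on all 4 arrays, the median processed signal of position probes was 75.7, 60.8, 75.2 and 84.6, beside 262, 218, 270 and 311 for other probes. Of the 2150 merged loci, 1297 (60.3%) had at least 1 probe on all 4 arrays and 591 (27.5%) had no probe on any array.

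Detection was alike on both letters, at 48.9% of F probes and 48.9% of R probes on all 4 arrays. It was lowest for short intervals. With the probes ordered by interval length into 4 groups of like size, 41.0% of the group on intervals of 62 to 1736 bp were detected on all 4 arrays, against 50.1%, 51.1% and 53.4% in the groups of longer intervals. By chromosome the share ran from 38.2% of 262 probes on chromosome 3 to 59.8% of 249 probes on chromosome 17.

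Where an interval was probed on both letters, 1 letter alone gave signal in some cases. There were 832 such intervals. In 280 of them both letters had a probe on all 4 arrays, in 256 1 letter was on all 4 arrays and the other on none (F in 112 and R in 144), in 118 the second letter was on 1 to 3 arrays, and in 96 neither letter was on any array. Of all position probes, 48.9% were on all 4 arrays and 36.8% on none, so unrelated probes would also give such splits. Whether the letters split more or less than that was not tested. The largest signal with a silent opposite letter was at chr8:48476637-48492537, where the F probe A_30_P01032305 read 13592, 8803, 14971 and 18987. Its R probe A_30_P01022148 read 1.78, 3.42, 6.57 and 9.73 and was not well above background on any array. At chr1:193875525-193978800 the order of letters was the other way. R probe A_30_P01027122 read 11513, 10418, 10367 and 12055, a second R probe, A_30_P01030147, read 34.7, 27.1, 25.5 and 38.2, and the F probe A_30_P01020673 was not well above background on any array. At chr4:141527564-141547339 the F probe A_30_P01020128 read 9091, 11922, 8737 and 10286 with no detected R probe. These signals describe each probe alone.

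A small number of position probes were very bright. The 6 with the highest mean level were A_30_P01031448 at chr14:78924115-78938125 (F), A_30_P01032016 at chr6:83368261-83407280 (F), A_30_P01031264 at chr12:73838608-73862621 (R), A_30_P01023523 at chr6:116092274-116144199 (F), A_30_P01030669 at chr7:108209996-108216032 (R) and A_30_P01022075 at chr17:17481706-17482457 (R). A_30_P01031448 read 76954, 75834, 74716 and 82378, and A_30_P01022075 read 43434, 41726, 40111 and 47884. None of the 6 passed the LPS test, with fitted LPS minus PBS values from -0.26 to -0.20 on the log2 scale and limma adjusted p from 0.199 to 0.387.

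LPS changed few position probes, and the rises were led by 4 loci. LPS against PBS was averaged over both genotypes in a limma model (genotype and agent as terms) over the 37793 probes that were well above background on at least 2 arrays, with Benjamini-Hochberg adjustment over all of them. Of the 2496 position probes in that fit, 23 (0.921%) rose at an adjusted p under 0.05, where 3.22% of all probes tested rose. Another 20 (0.801%) fell, where 2.22% of all probes tested fell. The members' median was -0.07 on the log2 scale and that of all probes tested -0.03. At an unadjusted p under 0.05, 271 members (10.9%) passed in either direction, beside 17.7% of all probes tested. The 23 probes that rose lay in 16 merged loci, 17 of them were detected on all 4 arrays, and 17 rose at least 2-fold. The 20 that fell lay in 20 loci, and 2 of them fell at least 2-fold. Every call had the same sign in both genotypes, and in 22 of 23 rises and 18 of 20 falls both LPS levels lay beyond both PBS levels. The test itself favours such probes, since the model's only residual is the difference between the genotypes' responses. These counts therefore add no support to the calls. The split of 23 higher to 20 lower moved with the scaling between arrays, to 22 to 9 with cyclic loess, 25 to 33 with quantile normalization, 25 to 72 with each array's median and 21 to 4 in the deposited value table.

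At chr5:96591892-96606467, an interval of 14576 bp, all 4 probes rose, 3 on F and 1 on R. F probe A_30_P01027478 read 775, 791, 3613 and 4112, a rise of 2.02 ± 0.11 on the log2 scale (limma standard error, adjusted p = 5.29e-06). F probes A_30_P01031757 and A_30_P01025234 rose by 2.03 ± 0.11 and 2.07 ± 0.12. Both LPS arrays were high and both PBS arrays low in each of the 3, and the response in DTA minus that in wild-type was -0.30, 0.09 and 0.18 in the same order. R probe A_30_P01029977 read 24.4, 22.3, 100.5 and 117, a rise of 1.94 ± 0.23. Each omission of 1 array was fitted with the agent's term alone, since no residual degree of freedom is left with both terms, and is set beside that smaller model on all 4 arrays. In it the R probe's adjusted p was 0.00404 with all 4 arrays and 0.0507 without the DTA LPS array, while the 3 F calls held without any 1 array.

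At chr14:55433382-55452757 the rise was on R alone. R probe A_30_P01026296 read 647, 631, 2934 and 3426, a rise of 2.04 ± 0.11 (limma adjusted p = 4.52e-06), and R probe A_30_P01026835 read 260, 222, 1144 and 1403, a rise of 2.13 ± 0.12. Both held without any 1 array. F probe A_30_P01032597 of the same interval was also detected on all 4 arrays, at 197, 256, 241 and 255, and its fitted difference was -0.13 ± 0.19 (adjusted p = 0.788). The rises of the 3 F probes on chromosome 5 and the 2 R probes on chromosome 14 all lay between 2.02 and 2.13. Whether the probes of both intervals share sequence was not analysed here.

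The largest rises lay close together on chromosome 1, all on R. This stretch falls in the region of the Ifi200 genes, a family of interferon-inducible DNA sensors, as background that was not set against gene models here. A_30_P01024163 at chr1:175705225-175717250 read 23.3, 42.5, 439 and 405, a rise of 3.47 ± 0.29 on the log2 scale (limma adjusted p = 9.54e-05). It rose by 4.19 in wild-type and 2.75 in DTA. Its DTA minus wild-type was 1.12 with PBS and -0.32 with LPS, and the difference between genotypes has no test. At chr1:175654606-175672031, A_30_P01017895 read 13.0, 21.1, 196 and 183, a rise of 3.24 ± 0.30. A_30_P01031526, of that same interval, read 7.59, 12.3, 141 and 162, was not well above background on the wild-type PBS array, which bounds the rise at 12.9-fold or more. Those 3 calls held without any 1 array.

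Weaker probes of the same stretch moved the same way. A_30_P01021838, also of chr1:175654606-175672031, read 16.9, 17.5, 108 and 92.1, a rise of 2.26 ± 0.28, with a limma adjusted p of 0.00114. Its adjusted p with the agent's term alone was 0.00618 on all 4 arrays and 0.0544 without the wild-type LPS array. A_30_P01030969, of the overlapping interval chr1:175660642-175671878, read 6.17, 8.56, 32.4 and 38.8. It was well above background on both LPS arrays and on neither PBS array, at least 3.63-fold higher with LPS (limma adjusted p = 0.0127). The probe entered the test through the LPS arrays alone, so that p is no support for the rise. With the agent's term alone the adjusted p was 0.0416 on all 4 arrays and 0.054, 0.151 and 0.233 without the wild-type PBS, wild-type LPS and DTA LPS arrays. The F probes of these intervals, A_30_P01032721 and A_30_P01025287, were detected on 1 array and on none. Of all probes tested, 3.22% rose and 2.22% fell. Among 9 named Ifi200 genes on the array, a list chosen after values were seen, 3 were well above background on no array. Of the 6 of these genes tested, 3 rose and 0 fell. The rises were in Ifi204, Ifi205 and Ifi209. Ifi205, at 4.11, 4.96, 88.1 and 100.2, and Ifi209, at 5.85, 9.26, 22.4 and 32.3, were each well above background on 2 arrays. Those 2 genes entered the test through such arrays alone, so their calls are no support. Of the 4 genes detected on all 4 arrays, Ifi204 rose by 3.73 ± 0.27 (28.3, 51.4, 612 and 610). Aim2, Ifi208 and Mndal did not pass, and Ifi208 had a fitted difference of 0.09 ± 0.11. Probes in a multigene family may bind more than 1 member, so the gene behind each signal is uncertain.

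Chromosome 7 held a second interval where the strand letters responded differently. At chr7:111526943-111545093, in the region of the Trim5, Trim12, Trim30 and Trim34 genes as background, R probe A_30_P01024661 read 21.5, 17.2, 125 and 84.6. That is a rise of 2.15 ± 0.27 (limma adjusted p = 0.00131). The adjusted p with the agent's term alone was 0.0138 on all 4 arrays and 0.0757 without the wild-type LPS array. F probes A_30_P01017625 (424, 351, 430 and 459) and A_30_P01024573 (2103, 1356, 1896 and 2148) had fitted differences of -0.07 ± 0.13 and -0.02 ± 0.11. The Trim genes encode ubiquitin ligases, several of them antiviral. Of 9 on the array, again a list chosen after values were seen, 4 were well above background on no array. Of the 5 tested, 4 rose and 0 fell, beside 3.22% and 2.22% of all probes tested. Trim30a rose by 2.25 ± 0.30 and Trim34a by 1.66 ± 0.24, while Trim12c had 0.99 ± 0.25 with an adjusted p of 0.0530. Over the 280 intervals with both letters on all 4 arrays, the letters' LPS responses differed by a median of 0.23, and by 2-fold or more in 6. Among probes of 1 interval and 1 letter the SD of the LPS response had a median of 0.13 over 118 such groups, a different measure from the difference between letters.

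The remaining named rises were smaller. A_30_P01031881 at chr13:56851404-56851796 (R) read 374, 436, 597 and 1727, so that the DTA LPS array stood above the other 3, and its rise of 1.05 ± 0.18 had a limma adjusted p of 0.00862. With the agent's term alone that p was already 0.288 on all 4 arrays, and it was 0.835 without the DTA LPS array. A_30_P01025572 at chr6:57583950-57624216 (F) read 125, 77.8, 226 and 247, a rise of 0.98 ± 0.17 (limma adjusted p = 0.00998). With the agent's term alone its adjusted p was 0.0479 on all 4 arrays and 0.071, 0.194 and 0.214 without the DTA PBS, wild-type LPS and DTA LPS arrays. Of the 23 rises, 14 held with the agent's term alone on all 4 arrays, and 8 of those 14 also held in every omission, in the 4 loci of chromosomes 1, 5 and 14 above.

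Beyond the 12 largest, 5 further rises were on probes detected on all 4 arrays. A_30_P01027958 at chr11:18367482-18393258 (R) read 101, 125, 235 and 308, and A_30_P01032951 at chr17:29374758-29387733 (F) read 88.1, 116, 218 and 268, each with a rise of 0.98. A_30_P01026095 at chr7:128341797-128414692 (R) read 415, 402, 700 and 1040, a rise of 0.79 ± 0.12 (limma adjusted p = 0.00453). A_30_P01021217 at chr14:26973425-26986650 (F) and A_30_P01033672 at chr11:35810031-35810205 (F) rose by 0.53 ± 0.10 and 0.44 ± 0.10. In each of these 5 probes both LPS levels lay above both PBS levels once scaled. Each of the 5 calls was lost with the agent's term alone on all 4 arrays (limma adjusted p from 0.0594 to 0.247). Called rises on probes not detected on all 4 arrays also included A_30_P01030618, at 2.75, and A_30_P01026290, at 1.84.

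Some probes crossed the detection limit. There were 12 probes (0.270% of 4450, beside 0.392% of all 56605 probes) well above background on both LPS arrays and on neither PBS array, and 52 (1.17%, beside 0.758%) with the reverse pattern. The lowest signal that counted as well above background was 7.60, 8.34, 10.6 and 11.5, thus higher on the LPS arrays, and its part in that count was not tested. Probes with either pattern entered the limma test through the arrays of 1 agent alone, the side where they were high. Their adjusted p is therefore no support for a change. Of the 12, A_30_P01031135 at chr13:81773237-81783062 (R) read 5.46, 1.74, 36.2 and 12.5, at least 2.21-fold higher with LPS (limma adjusted p = 0.0132). A_30_P01022276 at chr13:28947034-28949166 (R) read 4.92, 3.1, 14.7 and 28.5, at least 2.13-fold higher (adjusted p = 0.0359). Both calls were lost with the agent's term alone on all 4 arrays, at limma adjusted p of 0.170 and 0.0747. A_30_P01020759 at chr13:103101941-103102362 (F) read 8.15, 9.58, 37.1 and 15.3, so that the wild-type LPS array stood apart, and did not pass (adjusted p = 0.253). Of the 52, A_30_P01032556 at chr8:94841965-94881130 (F) read 15.1, 62.2, 2.95 and 3.08, at least 3.37-fold lower with LPS (adjusted p = 0.00612). Its DTA PBS array stood far above its wild-type PBS array, and with the agent's term alone its adjusted p was 0.0593 on all 4 arrays and 0.245 without the DTA PBS array. A_30_P01023198 at chr1:45800000-45834825 (R), at 19.7, 21.1, 8.14 and 13.0, was at least 2.11-fold lower and did not pass (adjusted p = 0.0952).

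The falls were small and spread over the genome, with 1 probe per locus. The largest among probes detected on all 4 arrays was A_30_P01020426 at chr19:6268793-6276607 (R), with levels of 1.71, 2.25, 0.44 and 1.44 on the log2 scale. It fell by 1.04 ± 0.12 (limma adjusted p = 0.00102), and both LPS levels were lower than both PBS levels, though the LPS arrays also differed, with DTA well above wild-type. With the agent's term alone its adjusted p was 0.200 on all 4 arrays and 0.0212 without the DTA LPS array. The F probe of that interval, A_30_P01017441, was not well above background on any array.

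The next falls were between 0.53 and 0.75. A_30_P01030582 at chr7:114369337-114407862 (F) had levels of -1.52, -1.86, -2.13 and -2.72 and fell by 0.74 ± 0.17. A_30_P01017721 at chr14:44284425-44300475 (F) had levels of 2.02, 2.07, 1.52 and 1.44 and fell by 0.57 ± 0.10 (limma adjusted p = 0.00974), with both PBS levels close together and both LPS levels below them. A_30_P01024460 at chr8:59966759-59989065 (R) had levels of 1.72, 1.69, 1.15 and 1.16 and fell by 0.55 ± 0.10 (adjusted p = 0.0118). The genotypes differed more than the injections in A_30_P01026183 at chrX:75813213-75829323 (F), with levels of 1.17, 0.72, 0.77 and -0.10, so its PBS and LPS levels overlapped across genotypes. A_30_P01028492 at chr16:93121505-93142255 (R), with levels of 2.45, 2.23, 2.06 and 1.44, fell by 0.59 ± 0.12 (adjusted p = 0.0164), and with the agent's term alone its adjusted p was 0.238 on all 4 arrays and 0.0371 without the wild-type LPS array. The 19 falls detected on all 4 arrays ran from -1.04 to -0.38, with a median of -0.55.

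Most falls passed only with the genotype's term in the model. With the agent's term alone on all 4 arrays 3 of the 20 held, and each of those 3 was lost in every omission of 1 array. The fitted fall of A_30_P01024460, 1 of the 3 (adjusted p = 0.0364 with that term alone), was between 0.53 and 0.57 in the omissions. A_30_P01020426, A_30_P01028492 and A_30_P01032556, which did not hold with that term alone on all 4 arrays, passed in 1 omission each. In 16 of the 20 the fall was larger in DTA than in wild-type. The median LPS minus PBS of position probes detected on both arrays was also lower in DTA, at -0.10, than in wild-type, at -0.05. The same count over all called falls was not made, so the 16 of 20 cannot be read as a trait of position probes.

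Calls of position probes varied with their brightness, and rises were less common than among other probes in each of 4 classes of brightness. With all tested probes divided by mean level into 4 classes of equal size, from dimmest to brightest, 0.651%, 0.908%, 1.17% and 1.79% of position probes rose, beside 2.96%, 4.14%, 3.75% and 2.69% of other probes. Falls made up 0.0930%, 0.130%, 1.41% and 5.38% of position probes, beside 0.537%, 1.01%, 2.73% and 4.78% of other probes. Thus in the brightest class the share of falls was near that of other probes. The 223 position probes of that class had a median LPS minus PBS of -0.18, with 181 below 0, beside a median of -0.07 for other probes. That median was -0.10 with cyclic loess, -0.12 with quantile normalization, -0.11 in the deposited value table and -0.23 with median scaling, so it stayed below 0 under these 4 scalings. The share of other probes that are protein-coding was not analysed, and these shares carry no test.

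The genotype test called 1 position probe. DTA minus wild-type, averaged over both injections, gave 1 rise (0.0401% of 2496, where 0.138% of all probes tested rose) and 0 falls (0.0476% of all probes tested) at a limma adjusted p under 0.05, and 192 members (7.69%, beside 8.12% of all probes tested) passed an unadjusted p under 0.05. The probe, A_30_P01024770 at chr8:89996710-90049453 (F), read 436, 646, 451 and 910. It was higher in DTA by 0.82 with PBS and 0.81 with LPS, a fitted rise of 0.82 ± 0.12 with an adjusted p of 0.0401. A_30_P01032532, on the overlapping F interval chr8:90048940-90049461, read 150, 233, 168 and 338, a difference of 0.85 ± 0.15 that did not pass (adjusted p = 0.0774). A_30_P01033533 on the R letter of the overlapping interval chr8:90000619-90061169 had -0.06 ± 0.19. The call of A_30_P01024770 was lost with the genotype term alone on all 4 arrays. It was also lost with cyclic loess, in the deposited value table and without the intensity trend. In the omissions of 1 array its fitted difference was 0.81 to 0.82. The test favours probes with near-equal differences under PBS and LPS, and such probes change little in the omissions. These values therefore add no support to the call.

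The pairs of arrays have no test, and differences of 2-fold or more were counted. Among probes detected on both arrays of a pair, DTA against wild-type with PBS had 13 position probes at least 2-fold higher (0.563% of 2311, beside 0.952% of all probes) and 40 at least 2-fold lower (1.73%, beside 1.01%). With LPS the same comparison had 12 higher (0.531%, beside 0.723%) and 20 lower (0.886%, beside 0.472%). LPS against PBS had 29 higher (1.26%, beside 2.45%) and 15 lower (0.650%, beside 0.57%) in wild-type, and 49 higher (2.18%, beside 2.68%) and 15 lower (0.666%, beside 1.15%) in DTA. Comparisons that share an array are not independent of each other.

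The LPS responses of the genotypes were set against each other over the 2175 probes detected on all 4 arrays, and differences of 2-fold or more were counted. The response was more positive in DTA in 72 (3.31%, beside 2.21% of all probes) and more negative in 36 (1.66%, beside 1.44%). Of the 72, 63 had their lowest level on the DTA PBS array and 8 on the wild-type LPS array. Of the 36, the lowest level was on the wild-type PBS array in 18 and on the DTA LPS array in 16. The choice itself favours these places, since a more positive DTA response needs a relatively low DTA PBS or wild-type LPS level. For a more negative response the reverse holds. The lowest levels therefore do not show which array stood apart, and they were not counted over all probes. The red cell markers tested and the neutrophil markers other than Ly6g were also far apart between the PBS arrays, as given above, and their part in these counts was not tested. Across the 2175 probes the LPS responses of the genotypes had a Pearson r of 0.26, which was 0.10 without the 17 called rises, as a description over probes measured on the same 4 arrays.

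The largest single differences were on dim probes. A_30_P01029628 at chr9:81537835-81583227 (R) read 18.9, 93.1, 18.2 and 16.7, so that the DTA PBS array alone was high and the responses differed by -2.88 on the log2 scale. A_30_P01024205 at chr9:43738583-43757007 (R) read 23.8, 16.1, 122 and 28.2, high on the wild-type LPS array alone. A_30_P01029947 at chr3:10081893-10094218 (R) read 29.7, 10.8, 31.2 and 65.5, a difference of 2.08. With 1 spot per array for nearly all of these probes (4445 of 4450), a single deviating spot and a change in RNA cannot be told apart.

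A group of neighbouring probes was mostly lower in DTA than in wild-type with PBS. Chromosome 12 from 110 to 111 Mb is the part of the imprinted Dlk1-Dio3 domain that gives rise to the maternally expressed noncoding RNAs Meg3, Rian and Mirg, as background. It was looked at after values were seen, and it held the most position probes on all 4 arrays of any 1 Mb window, 15 in 11 intervals. With PBS, 11 of the 15 were lower in DTA, with a median DTA minus wild-type of -0.55 (range -1.58 to 0.34). With LPS, 4 of 15 were lower, with a median of 0.07 (range -0.77 to 0.54). The median with PBS stayed below 0 in the 5 other scalings and corrections run, at -0.61 to -0.51 in 4 of them and -0.23 with normexp, where the median with LPS was -0.01. The strongest was R probe A_30_P01032963 at chr12:110845020-110850870, at 165, 46.3, 124 and 158. R probe A_30_P01031197 at chr12:110870903-110891628 read 207, 76.6, 148 and 233, and F probe A_30_P01020822 at chr12:110909258-110913909 read 453, 210, 303 and 402. In all 3 the DTA PBS array read lowest. In the R probes the other 3 arrays lay closer together. In the F probe the wild-type LPS level, once scaled, lay nearer to the DTA PBS level than to the wild-type PBS level. Over the 15 probes, LPS minus PBS had a median of -0.46 in wild-type, with 14 below 0. In DTA it had a median of 0.15, with 6 below 0. Which PBS array stood apart was not tested.

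Probes on named transcripts of that domain, which are not position probes, were also lower in DTA with PBS. Mirg, once scaled, had its lowest level on the wild-type LPS array, at 1.77, beside 1.82 on the DTA PBS array. Meg3 read 37804, 17527, 29154 and 36000, Rian read 8556, 4546, 7371 and 9828, and Mirg read 2919, 1798, 2137 and 2827, with DTA minus wild-type of -0.86, -0.66 and -0.45 with PBS and of 0.10, 0.21 and 0.20 with LPS. None passed the LPS test, with limma adjusted p from 0.603 to 0.916. The chromosome 12 window ranked 4 from the lowest in its median with PBS among 119 windows holding at least 5 such probes. The 3 lower windows began at 176 Mb (-0.82, 7 of 7 probes lower) and 175 Mb (-0.57, 5 of 5) of chromosome 2 and at 139 Mb (-0.82, 5 of 6) of chromosome 1. Lower values in DTA than in wild-type with PBS were thus not limited to chromosome 12. In the imprinted Snrpn and Ube3a region of chromosome 7, the window at 66 Mb had a median of -0.40 with PBS (5 of 6 lower) and -0.07 with LPS. In the window at 5 Mb of chromosome 19, which holds Neat1 and Malat1 as background, the median was -0.22 with PBS (4 of 7 lower). Its R probe A_30_P01020935 at chr19:5798135-5800557 read 7238, 4017, 7089 and 7826.

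Long noncoding RNAs probed by name were set beside the position probes. From a list of 55 names chosen with earlier results of these data known, 46 had a probe and 41 were tested, of which 1 rose (2.44%, beside 3.22% of all probes tested) and 2 fell (4.88%, beside 2.22%), with a median of 0.04 on the log2 scale. Oip5os1, whose RNA is known as cyrano, fell by 0.63 ± 0.11 (limma adjusted p = 0.0102) and read 1217, 827, 770 and 797. Sox2ot, which overlaps the gene of the neural stem cell factor Sox2, fell by 0.61 ± 0.14 (adjusted p = 0.0371). H19, an imprinted RNA of fetal tissues, read 4.28, 18.3, 17.2 and 75.2, at least 2.52-fold higher with LPS (limma adjusted p = 0.0188) on a probe not well above background on the wild-type PBS array, while a second H19 probe was detected on none. The design also held probes named mostly in capitals for noncoding RNAs. Of these, NRON, an RNA that holds back the transcription factor NFAT, read 61.5, 69.3, 146 and 191. That is a rise of 1.08 ± 0.19 (limma adjusted p = 0.00925). PINC, KCNQ1ot1, NEAT1 and TUG1 were tested too and did not pass, with limma adjusted p from 0.125 to 0.932. TSIX, XIST, HOTAIR, lincP21 and H19 of that set were detected on no array. NEAT1, the scaffold of nuclear paraspeckles, read 1240, 539, 1376 and 1658, with DTA minus wild-type of -0.95 with PBS and 0.07 with LPS, so its DTA PBS array was again the low one.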

How the data were processed

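Total RNA of whole brain, extracted with TRIzol and labelled with Cy3 per the labels' protocols, was measured on 4 Agilent arrays, 1 per group. The deposited spot intensity used here is the processed signal, after background subtraction within the array per the file headers. Feature Extraction is version 11.0.1.1 in the submitters' processing notes and 12.0.3.1 per the file headers. The flags for signal well above background and for outliers are deposited 0 or 1 values of the same software. The deposited value table equals each array's processed signal times 1.82, 2.09, 1.83 and 1.57 within 0.1% for at least 59304 of 59305 spots. The origin of these factors is not known from the sources used. Its column medians are 97.2, 91.4, 103 and 102, and it is on a linear scale and not centred by probe.

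Control and outlier spots were left out, spots of a probe were averaged, and log2 levels were taken relative to each array's 75th percentile of processed signal. Over 299 probes printed 10 times the spot SD was 0.0418 to 0.0455 (log2). Probes well above background on at least 2 arrays were fitted in limma 3.58.1 under R 4.3.3, with lmFit and a trended eBayes, with terms for genotype and agent. The fit leaves 1 residual degree of freedom, pooled with 8.43 prior degrees, so responses that truly differ between genotypes enlarge the error. All tests are two-sided, with p-values adjusted by Benjamini-Hochberg over 37793 probes, and ± is limma's standard error. The script was tested on simulated data. A probe dim in 1 group was bounded, per array, by its own signal or by the lowest signal flagged as well above background, whichever was higher.

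The members, the gene lists and the windows were chosen with earlier results of these data known. The named probes are the 12 largest rises and 12 largest falls past the threshold with 1 sign in both genotypes and detection on all 4 arrays, up to 6 detected with 1 agent only in each direction, genotype calls, the 6 largest differences of response, the 6 brightest, up to 6 intervals detected on 1 letter, and overlapping probes. The strand pairs were ranked by the signal of the detected letter. Other probes named were chosen after their values were seen. Files with coordinates for transcript probes, probe sequences and a genome of build mm9 were not used here. Alternatives covered scaling, background correction, filters, the variance model, the model terms and leaving out each array. The number of arrays limits the precision of every value.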

Additional observations from a re-analysis of the deposited data

Results flagged for a closer look

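In 3 position probes the LPS response was of opposite sign in the genotypes, with 1 array per group, and this difference was not tested. A_30_P01025282 at chr5:119945358-119962612 (R) read 17.3, 18.6, 53.5 and 13.5, an LPS minus PBS of 1.58 in wild-type and -0.96 in DTA, a difference of -2.54 on the log2 scale. A_30_P01018842 at chr7:66570691-66573827 (R) read 30.4, 8.97, 20.1 and 31.5, with -0.65 and 1.31, a difference of 1.96. A_30_P01032497 at chr16:29942664-29948289 (R) read 59.1, 19.3, 17.7 and 30.0, with -1.79 and 0.14, a difference of 1.93. Each is a single spot per array. With normexp background correction, chosen after seeing the data, the differences were -1.14, 0.20 and 0.57.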

How the results depend on the processing

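No paired analysis was possible because the labels carry no replicate numbers and each group has 1 array. Normexp correction, on the median spot signal, and the settings for the chromosome 12 window were chosen after seeing the data. The 23 higher and 20 lower LPS calls became 101 and 113 with no filter on dim probes, 0 and 0 without the intensity trend (the lowest adjusted p of a called member was 0.0504) and 14 and 3 with the agent's term alone. The lower calls were 72 with median scaling, 9 with cyclic loess, 33 with quantile normalization, 102 with normexp and 4 in the value table, and omitting 1 array gave 11 to 18 higher and 1 to 4 lower. No called probe and no named difference of responses changed sign in the settings run for it, while the median LPS minus PBS of all probes tested turned from -0.03 to 0.01 with cyclic loess, 0.04 in the value table and 0.02 with no filter. Omissions of 1 array use the agent's term alone, so they are to be read against the 14 and 3 of that model. The strand pairs, the 6 brightest probes and the windows other than that of chromosome 12 had no alternative scaling run. The 1 higher genotype call became 9 with median scaling, 7 with quantile normalization, 10 with normexp, 48 with no filter, 2 with detection on all 4 arrays, and 0 with cyclic loess, the value table, no trend, the genotype term alone and each omission of 1 array (0 to 0). The 0 lower genotype calls became 1 with median scaling, 1 with quantile normalization, 31 with normexp and 58 with no filter.

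For pairs of arrays, normexp gave 9 higher and 2 lower for LPS in wild-type, 9 and 2 for LPS in DTA, 1 and 0 for DTA with PBS, 1 and 2 for DTA with LPS, and 6 and 4 for the difference of responses. No filter gave, in the same order, 232 and 205, 316 and 195, 192 and 284, 226 and 194, and 452 and 347. Median scaling gave 23 lower for LPS in DTA. Normexp adds an offset of 50, which by construction shrinks differences of dim probes. The medians of all tested probes moved by under 0.1 (log2) under every setting. Dim signals limit the precision: 1075 of the 2496 tested (43.1%) fall in the dimmest of 4 classes, where the median standard error is 0.34, beside 0.10 in the brightest.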
